A study of Mus musculus with 3 samples.

Results

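The genes of the platelet-derived growth factor (PDGF) system were examined in sorted adipose stem and progenitor cells: the receptor genes Pdgfra and Pdgfrb and the ligand genes Pdgfa, Pdgfb, Pdgfc and Pdgfd. These 6 members were taken by name from the 27179 genes of the count table, and each matched 1 row. RNA was measured in 3 libraries of 1 group, made from epididymal fat of untreated wild-type male C57B6 mice aged 12 weeks. After digestion with collagenase, live stromal cells were sorted that lacked CD45, CD31 and Ter119 and carried CD140a, Sca1 and podoplanin. CD140a is the protein that Pdgfra encodes, so every cell in the libraries was chosen for it and the level of Pdgfra is not independent of the sort. The study has no other genotype, treatment or cell type. The tissue was taken from 3 mice; whether a library stands for a mouse or for a pool is not stated, and p-values and SDs then measure only the spread between these libraries, which may be technical.

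PDGF ligands are secreted dimers that bring receptor chains together on the cell surface and switch on their tyrosine kinase domains. The A and C chains act mainly through the alpha receptor, the B chain through both receptors and the D chain mainly through the beta receptor. In fat, the alpha receptor marks fibroblast-like progenitors that can give rise to adipocytes or to matrix-producing cells, and the beta receptor marks pericytes and other perivascular cells as well as part of the progenitors. Endothelium and platelets are classical sources of the B chain.

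The libraries held 25060096 to 32813373 counts. Levels are counts scaled to library size (CPM) after TMM normalisation, which corrects library sizes for differences in composition, and errors are SDs over n = 3 libraries. A count of 0 allows up to 3 counts, or 0.0945 to 0.119 CPM, and this limit covers counting error only. All 7 progenitor markers, among them Dcn, Col3a1, Lum and Ly6a, were detected, meaning that they reached 1 CPM in every library. Of 13 markers of pericytes and other mural cells, 4 were detected (Abcc9, Vtn, Des and Tagln), and Rgs5 and Higd1b had 0 counts. In bulk RNA, fewer cells of a type and less RNA per cell cannot be told apart.

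Both receptor genes were detected, and of the 4 ligand genes Pdgfa alone was. The count of 3 of 6 members stood beside 35.0% of all genes in the table and 43.7% of protein-coding genes. At a threshold of 0.5 CPM, 5 members were detected, beside 36.6% of all genes, because Pdgfc missed 1 CPM in library 3 and Pdgfd in library 1. Pdgfb was below 1 CPM in every library.

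Pdgfra (gene 18595, chromosome 5, 75151322 to 75198206, GRCm38.p6) encodes the alpha receptor. It had 47649, 37236 and 41331 counts in libraries 1, 2 and 3, which gave 1501, 1476 and 1476 CPM and a mean of 1484 ± 14.5. The highest library was 1.02 times the lowest, and the gene ranked 59 by mean CPM in the table. Its coefficient of variation was 0.978%. Among the 1761 genes at 100 CPM or more on average, 9 had a lower one and the median was 18.0%. The libraries thus lay closer together in Pdgfra than in most genes at 100 CPM or more. The cells were gated on its protein, and a link between the gate and this spread was not tested. By distance over log2(CPM + 0.5) in the 3 libraries, genes among those most like it in level and pattern were Ifi27l2a (distance 0.17) and the scavenger receptor gene Scara5 (0.22).

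Pdgfrb (gene 18596, chromosome 18, 61045127 to 61085067) encodes the beta receptor. It had 3491, 4726 and 4866 counts, or 110, 187 and 174 CPM, with a mean of 157 ± 41.3. Library 1 was the lowest and libraries 2 and 3 were close together. The coefficient of variation was 26.3%, and 1321 of the same 1761 genes had a lower one. The variation did not pass the test across all genes (edgeR goodness of fit, adjusted p = 0.98). The genes most like it over the 3 libraries were Hspb8, Tpd52l2 and Acaa2, each at a distance of 0.21. The summed level of 13 mural markers was 51.2, 123 and 63.3 CPM. That sum was highest in library 2, largely through Abcc9 at 12.9, 85.4 and 16.6 CPM. The other detected mural genes had other patterns. Des stood at 5.13, 7.89 and 15.1 CPM, Vtn at 21.2, 17.9 and 19.6 and Tagln at 5.99, 4.16 and 2.00. The part of mural RNA in the level of Pdgfrb was not tested. Of the mural list, 4 of 13 genes were detected (Abcc9, Vtn, Des and Tagln), and its median was 1.46 CPM against 0.108 for all genes and 1.89 for protein-coding genes.

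Per kilobase of exon, which takes out the length of the transcript, Pdgfra stood at 148 ± 1.45 CPM per kilobase and Pdgfrb at 28.7 ± 7.54. The ratio of the receptors was 7.46, 4.31 and 4.64 in libraries 1, 2 and 3. The summed receptor level was nearly level across libraries, at 170, 181 and 179 CPM per kilobase. That sum was mostly Pdgfra, and Pdgfrb alone stood at 20.1, 34.2 and 31.7 CPM per kilobase. On the log2 scale, Pdgfra exceeded Pdgfrb by 2.40 ± 0.43 per kilobase, with Pdgfra higher in all 3 libraries (two-sided p = 0.25 by an exact permutation test that flips signs; adjusted p = 0.34 over 15 pairs of members). This p is the lowest that 3 libraries can give, so the design cannot reach 0.05.

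**Figure D1:**
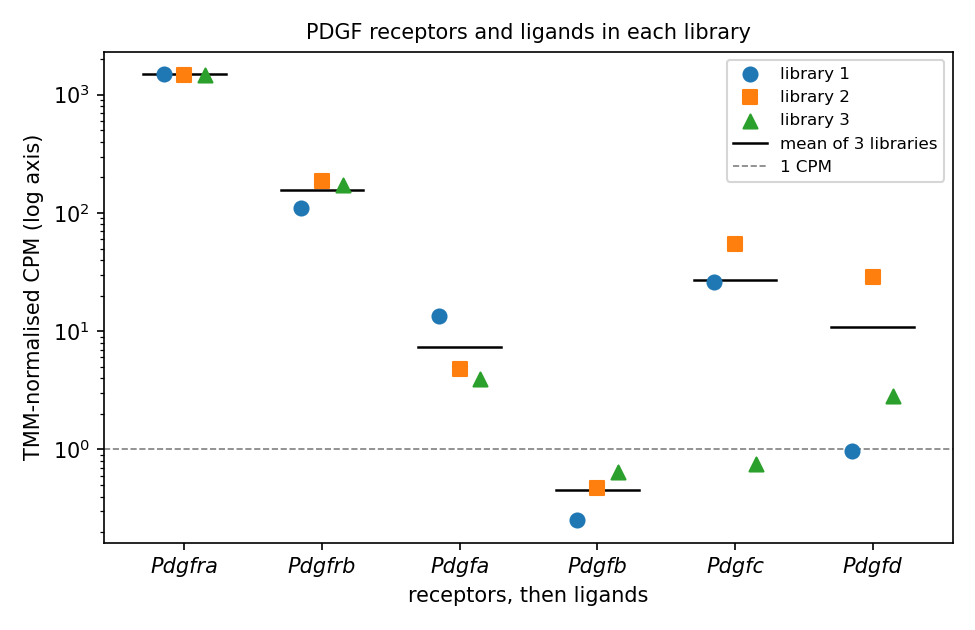
Level of each PDGF gene in each library, as TMM-normalised CPM on a log axis, with symbols for the 3 libraries, a bar for their mean and a dashed line at 1 CPM. The points of Pdgfra fall together near 1484 CPM, while those of Pdgfc run from 0.75 to 55.0 CPM and those of Pdgfb lie below the line.

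Per kilobase of exon, the ligand genes were lower than both receptor genes in every library. Their coefficients of variation in CPM ran from 42.9% for Pdgfb to 143% for Pdgfd, above the 26.3% of Pdgfrb. No test compared ligands with receptors, and the ligands rest on fewer counts. Among the 6090 genes at 5 to 50 CPM on average, the median was 45.5%. Of these, 4717 had a lower one than Pdgfa (70.5%), 5641 than Pdgfc (99.8%) and 6000 than Pdgfd. Pdgfb lay below that range of levels. Pdgfc (gene 54635, chromosome 3, 81036416 to 81214040) encodes a latent ligand that carries a CUB domain and must be cut to bind its receptor. It had 821, 1389 and 21 counts, or 25.9, 55.0 and 0.75 CPM. Library 2 was the highest and library 3 was 73.4 times lower, below the detection threshold. The mean was 27.2 ± 27.2 CPM, and 13.3 without library 2. Pdgfd (gene 71785, chromosome 9, 6168363 to 6534284) encodes the other latent chain with a CUB domain. It had 31, 720 and 80 counts, or 0.977, 28.5 and 2.86 CPM. Its mean of 10.8 ± 15.4 CPM rested on library 2 and was 1.92 without it.

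Pdgfa (gene 18590, chromosome 5, 138976014 to 139000792) encodes the A chain, a ligand of the alpha receptor. It had 424, 122 and 110 counts, or 13.4, 4.83 and 3.93 CPM. Library 1 was high and the other libraries were close together, and the mean of 7.37 ± 5.20 CPM was 4.38 without library 1. The genes most like it over the 3 libraries were Dolpp1 and Zfp783, both at a distance of 0.20, and Zbtb8a at 0.22. Of the stretches of 50 bases in the Pdgfa transcripts, 21.3% also occur, on the opposite strand, in 6330403L08Rik. The strand used in counting is not given in the sources used here, so reads of these genes cannot be told apart in those stretches.

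Pdgfb (gene 18591, chromosome 15, 79995865 to 80024614) encodes the B chain, which recruits pericytes to new vessels. It had 8, 12 and 18 counts, or 0.252, 0.476 and 0.643 CPM. The exact 95% Poisson intervals were 0.109 to 0.497, 0.246 to 0.831 and 0.381 to 1.02 CPM, and they cover counting error only. The variation between libraries did not pass the test (edgeR goodness of fit, unadjusted p = 0.94). Of 10 endothelial markers none was detected, with sums of 0.756, 0.476 and 2.54 CPM, and Esam had 0 counts. Of 7 platelet markers none was detected, and Pf4, Ppbp and Gp9, defining genes of that lineage, had 0 counts. The sums of the platelet list were 9.95, 12.6 and 11.6 CPM, nearly all from Itga2b and Gp1bb.

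The order of the ligands changed from library to library. Per kilobase of exon, Pdgfc led in library 1 at 5.08 CPM per kilobase, ahead of Pdgfa at 4.28. In library 2, Pdgfc at 10.8 and Pdgfd at 9.05 were both above Pdgfa at 1.55. In library 3, Pdgfa at 1.26 and Pdgfd at 0.906 were above Pdgfc at 0.147, which lay beside Pdgfb at 0.154. The summed ligand level was 9.73, 21.5 and 2.47 CPM per kilobase, a range of 8.73 times. The summed receptors ranged over 1.07 times, but that sum was mostly Pdgfra, and Pdgfrb alone ranged over 1.70 times. Most of the range of the ligands came from the C and D chains, at 5.39, 19.9 and 1.05. The A and B chains were at 4.34, 1.66 and 1.41.

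Across the 15 pairs of members, 11 had 1 sign in 3 of 3 libraries on the log2 scale per kilobase. Pdgfra was above Pdgfc by 5.95 ± 2.90, above Pdgfa by 6.07 ± 0.87, above Pdgfd by 6.48 ± 2.23 and above Pdgfb by 9.35 ± 0.32. Pdgfrb was above Pdgfb by 6.95 ± 0.21 and above the other ligands by 3.54 to 4.08. The neighbours Pdgfc, Pdgfd and Pdgfa did not differ beyond their spread. Pdgfc minus Pdgfd was 0.53 ± 2.80, Pdgfc minus Pdgfa 0.12 ± 2.60 and Pdgfd minus Pdgfa -0.41 ± 2.84 (two-sided p = 0.75 each by the same exact permutation test). Pdgfb was the lowest per kilobase in libraries 1 and 2 and shared the lowest place with Pdgfc in library 3.

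Pdgfc was the member whose variation between libraries passed the test (edgeR goodness of fit, Benjamini-Hochberg adjusted p = 0.0125). Of 13289 genes tested, 61 passed, or 0.459%. This test is liberal: on data simulated with no change, 6.83% of genes had an unadjusted p under 0.05 and 10 passed. When library 3 was set against the others, the call for Pdgfc ended in edgeR's quasi-likelihood test (adjusted p = 0.68), in which 0 genes passed in any library (0.0%) and 511 to 674 had an unadjusted p under 0.05. DESeq2's Wald test gave an adjusted p of 4.4e-07 for the same split, and 481 genes passed in at least 1 library (3.62%). Library 3 is the one lowest in Pdgfc and stands alone in that split, and false calls of DESeq2 were not simulated here, so this value is a description. The call rested on libraries 2 and 3: without library 2 the goodness-of-fit adjusted p was 0.34, and without library 3 it was 0.90, both from edgeR. For Pdgfd, the goodness-of-fit p was 0.019 and its adjusted p 0.51 (edgeR). The adjusted p of Pdgfra, Pdgfrb, Pdgfa and Pdgfb ranged from 0.98 to 1.00 (edgeR). Library 2, the highest in Pdgfc and Pdgfd, also had the highest sums of macrophage and leukocyte markers (20.3 CPM against 7.53 and 8.43), of mesothelial markers (7.73 against 0.567 and 3.64) and of adipocyte markers (6.62 against 1.10 and 2.11). Of these lists, 1 of 11, 0 of 7 and 0 of 5 genes were detected. In library 2 these sums came largely from Ptprc at 15.8 CPM, Csf1r at 2.18, Krt18 at 7.61 and Retn at 6.5, while Adipoq, C1qb and Fcgr1 had 0 or 1 count over the 3 libraries. Within the macrophage list, Lyz2 had 25, 0 and 0 counts and was highest in library 1. The mural and platelet sums were also highest in library 2. Those of endothelial markers (0.756, 0.476 and 2.54 CPM) and Schwann cell markers (7.72, 10.3 and 14.4 CPM) were highest in library 3. The part of RNA from other cell types in the ligand levels was not tested.

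**Figure D2:**
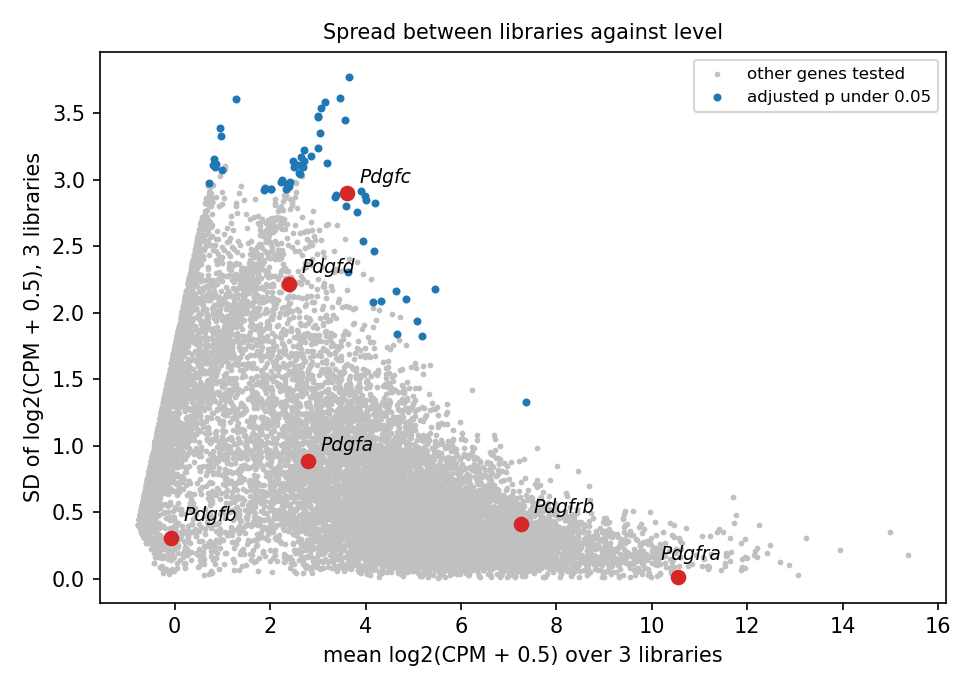
SD of log2(CPM + 0.5) over the 3 libraries against its mean, for the 13289 genes tested, with the 61 genes past an adjusted p of 0.05 in blue and the PDGF genes in red. Pdgfc lies among the blue points, Pdgfd below them, and Pdgfra at the bottom edge with a coefficient of variation of 0.978%.

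The promoter windows of Pdgfra, the member with the lowest coefficient of variation, and of Pdgfc and Pdgfd, those with the highest, are shown to set them side by side. Each holds the 250 bases before the transcription start that the RefSeq promoter set uses, on the plus strand of GRCm38.p6. For Pdgfc that start is the first base of the gene bounds given above. For Pdgfra and Pdgfd it lies 929 and 123 bases inside those bounds, so their windows lie within or reach into the gene as bounded there. Letters are in lower case, and capitals mark a match on either strand to any of 3 motifs that do not overlap here. The letters searched for the TATA box were TATAAA. Those for the GC box were GGGCGG. The CCAAT box was searched by the letters of its name. The windows are chr5:75152001-75152250, chr3:81036166-81036415 and chr9:6168236-6168485.
Pdgfra: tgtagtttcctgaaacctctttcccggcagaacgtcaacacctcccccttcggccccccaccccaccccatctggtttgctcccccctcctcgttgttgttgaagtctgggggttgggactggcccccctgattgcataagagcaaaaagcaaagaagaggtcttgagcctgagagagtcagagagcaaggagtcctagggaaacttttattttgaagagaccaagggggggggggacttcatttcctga
Pdgfc: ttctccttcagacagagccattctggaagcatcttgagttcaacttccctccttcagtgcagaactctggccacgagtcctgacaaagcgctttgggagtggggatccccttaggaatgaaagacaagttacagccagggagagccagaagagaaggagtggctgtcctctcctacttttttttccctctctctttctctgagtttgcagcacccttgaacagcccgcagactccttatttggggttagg
Pdgfd: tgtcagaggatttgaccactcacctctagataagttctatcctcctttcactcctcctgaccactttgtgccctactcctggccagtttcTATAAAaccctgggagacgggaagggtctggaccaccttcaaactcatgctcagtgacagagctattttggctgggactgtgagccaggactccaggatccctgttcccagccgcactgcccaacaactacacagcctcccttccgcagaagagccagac
The match in these windows was a run of the TATA box letters in that of Pdgfd, beginning 160 bases before the start used for the window and 37 bases before the outer bound of the gene. Among all 32851 windows of this length, 12.4% held the TATA box letters, 33.8% those of the CCAAT box and 32.7% those of the GC box. The windows of Pdgfra, Pdgfc and Pdgfd held 4, 3 and 3 CpG sites, against a median of 6 over all windows, of which 37.8%, 29.0% and 29.0% held fewer. A missing match says only that these letters are not in this window.

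Among receptor tyrosine kinase genes, Pdgfra stood near the top and Pdgfrb in the upper part of the list. Of 58 such genes, 26 were detected (44.8%), close to the 43.7% of all protein-coding genes. Their median was 2.61 CPM, beside 1.89 for protein-coding genes. Per kilobase of exon, Pdgfra was below Axl, a receptor for the bridging ligand Gas6, which stood at 287 ± 39.8, and above the collagen receptor gene Ddr2 at 104 ± 2.03. Axl exceeded Pdgfra 1.71, 1.85 and 2.25 times in libraries 1, 2 and 3, and Pdgfra exceeded Ddr2 1.42, 1.40 and 1.45 times, so this order per kilobase was the same in every library. The order of Axl and Pdgfra rests on the length correction: in CPM, Pdgfra ranked 1 at 1484 against 1443 for Axl, and Axl, at 1292, 1368 and 1670 CPM, was below it in libraries 1 and 2. Pdgfra held 19.4% of the summed level of the 58 genes per kilobase and Pdgfrb 3.75%. Pdgfrb ranked 6, below the angiopoietin receptor gene Tek at 68.3 ± 13.8 and Fgfr1 at 29.9 ± 6.86. The means of Fgfr1 and Pdgfrb differed by less than the SD of either gene. Within each library Fgfr1 was slightly higher, at 22.2, 35.2 and 32.4 CPM per kilobase against 20.1, 34.2 and 31.7. With the longest transcript as the length, Pdgfra still ranked 2, while Fgfr1 at 58.6 CPM per kilobase stood well above Pdgfrb at 29.0, which ranked 7, behind Ryk.

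**Figure D3:**
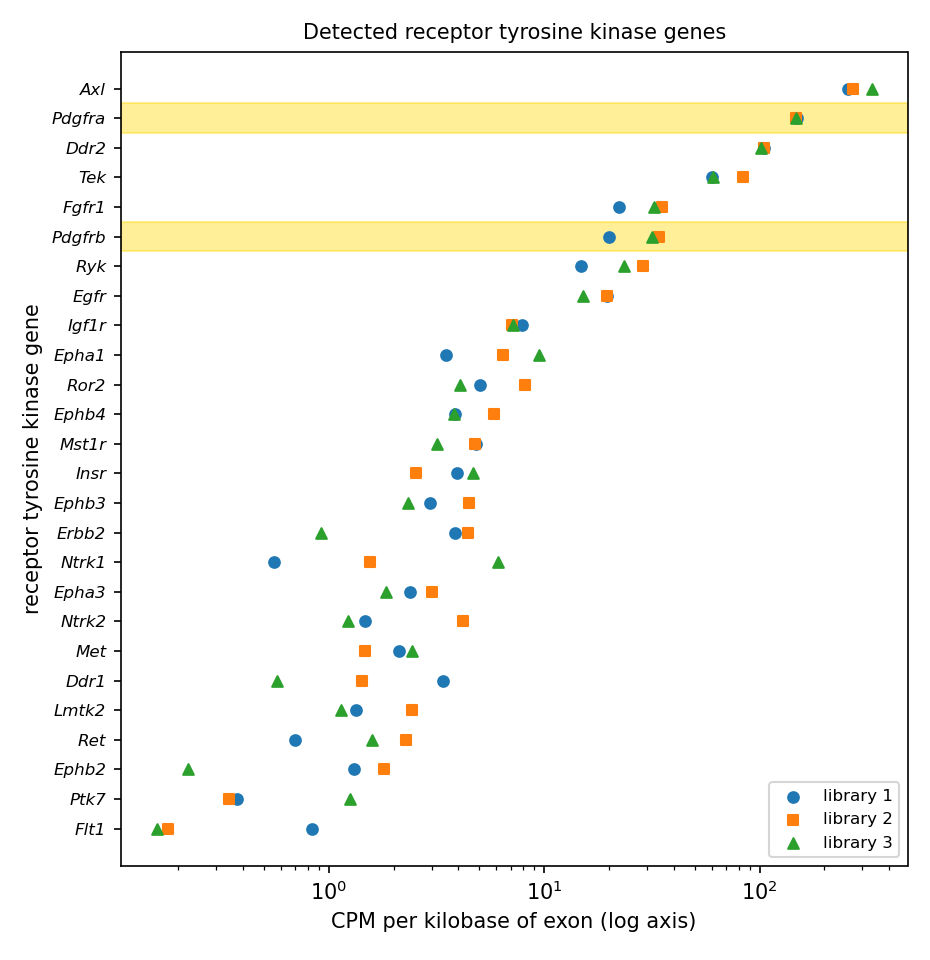
Level of the 26 detected receptor tyrosine kinase genes, in CPM per kilobase of exon on a log axis, with symbols for the 3 libraries and yellow bands over the PDGF receptors. Pdgfra lies between Axl and Ddr2 in every library, and Pdgfrb beside Fgfr1.

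The closest relatives of the PDGF receptors, which lie next to them in the genome, were low. Kit, the stem cell factor receptor gene, begins 377 kb beyond Pdgfra on chromosome 5 and had 5, 28 and 0 counts. Kdr, a VEGF receptor gene, follows Kit by 276 kb and had 2, 0 and 7 counts. Csf1r, the receptor gene of macrophage growth factor, lies 20.5 kb beyond Pdgfrb on chromosome 18 and had 2, 55 and 4 counts. No other protein-coding gene of the table lies in these 3 gaps. Flt3, the remaining class III receptor gene, had 3, 0 and 1 counts. The ligands of these relatives were less uniformly low: Csf1 stood at 231 ± 66.4 CPM and the Flt3 ligand gene Flt3l at 33.8 ± 5.37, and Kitl at 89.9, 5.11 and 10.8 CPM. The variation of Kitl between libraries passed the test (edgeR goodness of fit, adjusted p = 0.0185). Among the VEGF genes, which share the cystine-knot fold of the PDGF chains, Vegfa stood at 127 ± 46.2 CPM, Vegfc at 124 ± 21.3, Vegfd at 68.6 ± 7.58 and Vegfb at 17.7 ± 8.29. Per kilobase, Vegfc at 50.6, Vegfa at 29.6, Vegfd at 28.5 and Vegfb at 11.0 were all above the highest PDGF ligand, Pdgfc at 5.35, as means over the 3 libraries. In library 2 Vegfb, at 8.15 CPM per kilobase, was below Pdgfc and Pdgfd. Pgf was not detected (0.63, 0 and 9.11 CPM).

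The proteases that release active PDGF were detected in 6 of 7 cases, with a median of 16.4 CPM. Plat, the gene of tissue plasminogen activator, which cuts the C chain, had 408, 496 and 484 CPM in the 3 libraries, a mean of 463 ± 47.8. It was thus high in library 3 as well, where Pdgfc was at 0.75 CPM. Of the enzymes that cut the D chain, the urokinase gene Plau stood at 16.4 ± 4.25 CPM and the matriptase gene St14 had 0 counts. The proprotein convertases process the A and B chains, and of these Pcsk6 stood at 412 ± 96.0 CPM, Pcsk5 at 325 ± 64.2, Furin at 13.8 ± 2.69 and Pcsk7 at 10.6 ± 2.26. Per kilobase of exon, Pcsk6 at 79.4, Plat at 74.2 and Pcsk5 at 22.5 CPM per kilobase were above Plau at 6.91, Pcsk7 at 2.04 and Furin at 1.5. Of the genes for proteins that bind PDGF or its receptors, 3 of 6 were detected: Sparc, a matrix protein that binds the B chain, at 748 ± 52.2 CPM, the endocytic receptor gene Lrp1 at 533 ± 80.0 and the co-receptor gene Nrp1 at 342 ± 110. Pdgfrl, a receptor-like gene without a kinase domain, stood at 3.78, 7.45 and 0.214 CPM. A2m and Pzp, which encode plasma protease inhibitors, were below 1 CPM in every library.

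Genes for the proteins that carry the signal inward were detected almost throughout. Of 29 adaptors and effectors, 27 were detected, with a median of 48.8 CPM. The adaptor genes Crk (280 ± 27.4) and Nck1 (172 ± 14.3) and the Src-family kinase gene Fyn (211 ± 47.1) were among those with the highest CPM. Pik3cb and Crkl were the members below 1 CPM in a library. Plcg1, the phospholipase that docks on both receptors, was low at 6.68, 1.51 and 3.32 CPM. Of 9 genes for proteins that end the signal, 7 were detected, with a median of 25.7 CPM. The tyrosine phosphatase genes Ptpn12 (109 ± 43.8) and Ptpn2 were among the highest of them in CPM, Ptpn2 with a wide spread of 72.2, 44.3 and 10.3 CPM. Cbl, a ubiquitin ligase that marks active receptors for breakdown, was at 1.73, 0.991 and 0.429 CPM, and the blood-cell phosphatase gene Ptpn6 had 0 counts. All 6 genes of the primary cilium, an antenna-like organelle from which the alpha receptor can signal, were detected, from Ift172 at 20.5 ± 14.0 to Ift20 at 156 ± 45.6 CPM. Of the genes for proteases, binding proteins, adaptors, effectors, attenuators and the cilium, 54 of 57 were tested for variation between libraries, and 0 passed by edgeR's goodness of fit, where 0.459% of all genes did. Among these 54, 1 had an unadjusted p under 0.05 by the same goodness of fit, where 7.6% of all genes tested did.

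**Figure D4:**
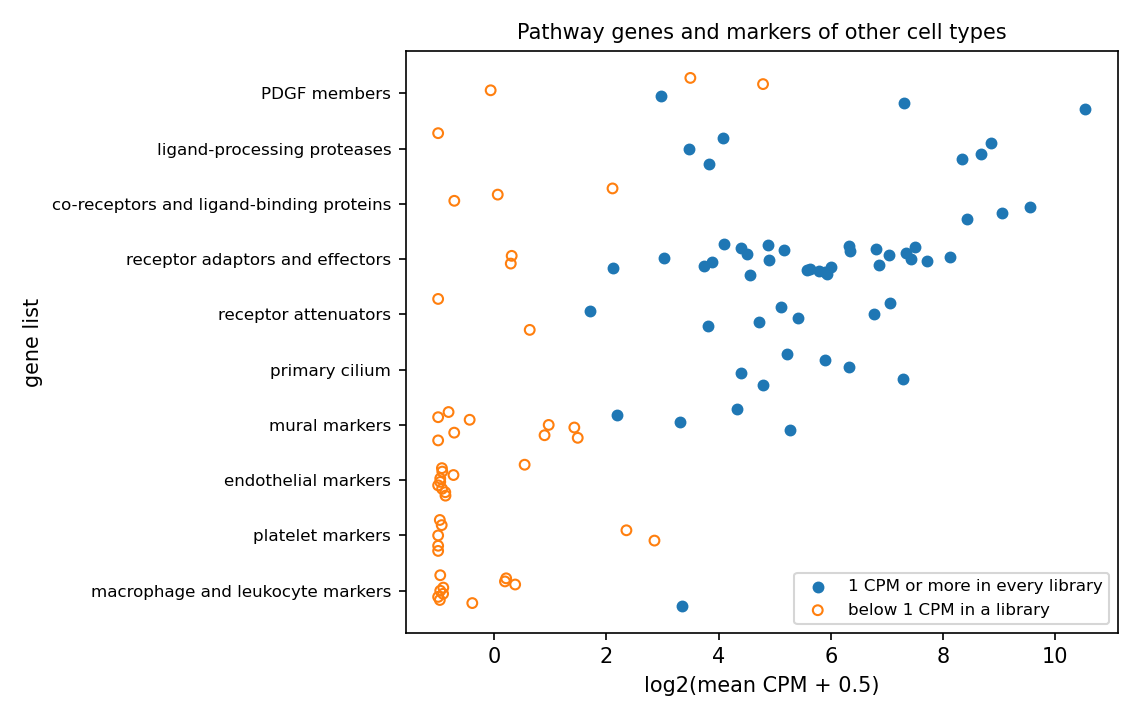
Mean level of every gene in 6 lists of the PDGF pathway and 4 lists of markers of other cell types, as log2(mean CPM + 0.5), with filled points for genes at 1 CPM or more in every library. In the adaptor and effector list 27 of 29 points are filled, and in the endothelial and platelet lists 0 of 10 and 0 of 7.

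Early genes that PDGF, serum and many other stimuli induce were detected in 16 of 16 cases, led by Fos at 6574 ± 557 CPM, Egr1 at 2953 ± 200, Ccl2 at 1399.7 ± 142 and Ccl7 at 1366 ± 369. Their sum was nearly even, at 15962, 16442 and 16658 CPM in libraries 1, 2 and 3, and these highest genes weigh most in it. Some lower genes were less even, among them Egr2 at 55.0, 51.6 and 5.71 CPM and Spry4 at 14.1, 12.2 and 47.4. A link between the early genes and the ligand levels was not tested. The cells had been digested and sorted before lysis, and no undigested tissue was measured. The levels of the early genes cannot be told apart from those that handling induces.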

How the data were processed

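RNA was measured in 3 libraries of 1 group. Per the labels' protocols, full-length cDNA was amplified (SMARTer Ultra Low Input RNA Kit, version V4). CASAVA 1.8.2, STAR 2.3.0 and build mm10 stand in the submitters' processing notes. The counter, the annotation and the strand setting were not given in the sources used here. Values deposited by the authors are raw counts of reads for each NCBI gene ID, with no normalization. Without molecular identifiers, PCR copies of a molecule cannot be told apart.

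Symbols and coordinates came from RefSeq (GRCm38.p6, the assembly of mm10), which matched 25275 of 27179 IDs. Exon lengths, from the union of exons in GENCODE M21, were found for 21572 IDs. RefSeq promoter windows were matched for 4 of 6 members, and 3 are printed.

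CPM used TMM sizes from edgeR 4.0.16 (R 4.3.3). Log2 differences used a pseudocount of 0.5 CPM, which understates those of low genes. Variation between libraries was tested with edgeR's intercept-only fit and trended dispersion (10 counts or more in at least 1 library, Benjamini-Hochberg over all genes tested). On simulated data for this comparison, it recovered 82% of 200 genes changed 16-fold in 1 library (12628 genes tested). It recovered 27% of 200 genes changed 4-fold (12639 genes tested). On the same data, edgeR's quasi-likelihood test of each library against the others recovered 90% and 42.5%. The changed genes were at 10 CPM or more and were only raised, and counts were drawn with the trended dispersion. Recovery of lower genes or of drops was not simulated. DESeq2 1.42.0 was an alternative. Other steps used scipy 1.17.1, pandas 2.3.3 and numpy 2.4.6 under Python 3.11.15.

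The members and lists were chosen with earlier results of these data known. The text names every member, up to 4 genes with the highest CPM of a list, undetected list genes where a count needs them, receptor tyrosine kinases above Pdgfrb per kilobase and the 3 genes nearest to each detected member. Some genes that this rule takes are not reported here. Other list genes were named after their values were seen. Alternatives were other size factors, pseudocounts, lengths, thresholds, filters and tests, and leaving out each library.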

Additional observations from a re-analysis of the deposited data

How the results depend on the processing

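No paired analysis was possible because the labels give 1 group only. At a threshold of 0.5 CPM, 5 of 6 members were detected in place of 3, and at 5 CPM, 2, where 28.3% of all genes were detected. The 61 genes that varied between libraries became 18 with 10 counts required in every library, 0 by edgeR's quasi-likelihood test, 481 by DESeq2's Wald test, and 26 to 35 with 1 library left out. The causes of these changes were not tested, and leaving out a library changed the number of libraries and the genes tested together. The adjusted p of Pdgfc was 0.0105 to 0.90 over its alternatives other than DESeq2's. Differences among the 3 neighbouring ligands turned when 1 library was left out: Pdgfc minus Pdgfd ranged from -0.93 (without library 1) to 1.86, Pdgfd minus Pdgfa from -1.83 to 1.01 (without library 1) and Pdgfc minus Pdgfa from -1.15 (without library 2) to 1.45. The cause of these turns was not tested. These were 3 of 120 pair values under alternatives, and the others kept their sign. Pdgfra minus Pdgfrb was 2.16 to 2.55 with 1 library left out, 2.94 with the longest transcript as length and 3.27 with no length correction. The number of pairs with 1 sign was 11 to 14 of 15. With other size factors or library totals, mean levels of the members moved by less than 1 SD. Leaving out 1 of 3 libraries cannot move a mean that far, so that limit does not check it. With 1 library left out, the mean of Pdgfd was 1.92 to 15.7 CPM and that of Pdgfc 13.3 to 40.5. Depth limits Pdgfb, at 8 to 18 counts a library, and Pdgfc in library 3, at 21 counts.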
